A study of Mus musculus with 4 samples.

Results

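The collagen, laminin and integrin genes of mouse kidney nuclei were taken by name, as every row of the deposited expression table whose symbol begins like a collagen chain, a laminin chain or an integrin subunit. Of 19609 gene rows, 77 matched, and 55 of these reached a value of at least 0.5 in at least 1 of 92 columns, which are 23 clusters of nuclei in each of 4 mice. The 55 genes were 26 of 40 collagens, 11 of 11 laminins, 15 of 22 integrins and 3 genes that are matched by name but are not chains: Col4a3bp, a ceramide transporter, Itgb1bp1, which binds the tail of the integrin β1 subunit, and Itgb3bp, a centromere protein. Of all 19609 rows, 11444 reached that value.

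Single nucleus RNA sequencing was done on kidney cortex of 4 male mice of mixed strain, 1 mouse per group. Control mice carried the TRE-hKLF6 transgene alone, and hKLF6 OE mice carried CAG-rtTA with TRE-hKLF6, in which a globally active promoter drives the transactivator that switches on human KLF6 in the presence of doxycycline. Per the study's methods, all mice were on a diet with 200 mg/kg doxycycline, and in each genotype 1 mouse received a single injection of 2 mg/kg aristolochic acid I (AAI), a plant toxin that damages DNA in the proximal tubule (PT), and was killed after 24 hours. The other mouse of each genotype is labelled as not treated with AAI. A value is the mean over the nuclei of 1 cluster in 1 mouse of counts per 10000, on a linear scale, from reads on exons and introns. Values are given below in the order control, control AAI, hKLF6 OE, hKLF6 OE AAI. With 1 mouse per group there is no spread between mice and no test of any difference, so all values describe these 4 mice, and genotype, AAI and mouse cannot be told apart.

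Basement membranes are sheets under epithelia and around vessels, built from a collagen IV network and a laminin network. Collagen IV assembles as α1α1α2 in most basement membranes and as α3α4α5 in the mature glomerular and part of the tubular basement membrane, where mutations of these chains cause Alport syndrome. Laminins are trimers of an α, a β and a γ chain, fibrillar collagens (types I, III, V and others) fill the interstitium, and integrins are αβ receptors that bind these proteins and, in the case of αvβ6 and αvβ8, release latent TGF-β.

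Several limits apply to the clusters. Names were taken from the order of the study's marker tables, and for 7 of 7 complete marker tables the place in that order was also the cluster that fitted best. In 6 clusters (InjuredPT-A, InjuredPT-B, IC-B-2, Macrophage, LH-DL and LH-AL-3) at least 50% of genes were at 0 in some mouse, and values there are the least certain. LH-DL, labelled descending limb, held the podocyte gene Wt1 at a mean of 4.4 beside 12.1 in Podocytes, and Macrophage held the endothelial gene Flt1 at 6.68 beside 22.7 in EC-2. EC-1, labelled endothelial, held Flt1 at 3.80 and the PT phosphate transporter Slc34a1 at 32.1. Of the mesangial and stromal markers listed, Pdgfrb, Pdgfra, Dcn, Acta2 and Ren1 were highest in MC, Gata3 in CD_PC and Ebf1 in EC-2. MC also held Flt1 at 2.95 and Slc34a1 at 21.7. The summed level of 7 PT markers ranged outside the PT from 17.3 to 94.3 in the control mouse, from 8.04 to 75.2 with AAI, from 14.97 to 73.7 in the hKLF6 OE mouse and from 10.1 to 71.3 in the hKLF6 OE AAI mouse, and 5 of the 7 were above 0 in every such cluster and mouse (Slc5a2 and Slc13a3 were at 0 in some). Their part in the results below was not tested.

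Because introns are counted, a long gene gathers more reads, so each gene is compared with itself across clusters and mice and not with other genes. The 55 genes were long: the median genomic span was 120 kb beside 31.3 kb for the 11343 annotated genes that reached 0.5, and 33 of 55 (60%) exceeded 100 kb beside 18.2%. On the same strand, 24 of the 55 overlapped another annotated gene, among them Itga1 with Pelo, and for those the reads cannot be assigned with certainty. At the value that set the list, Col1a1 (0.513, in MC of the hKLF6 OE AAI mouse) and Col16a1 (0.557, in MC of the control AAI mouse) lay just inside, and Col20a1 (0.478), Col7a1 (0.435) and Col5a3 (0.428) just outside. The other 19 rows left out were Col11a1, Col12a1, Itgb7, Itgb3, Itga11, Itga7, Col6a2, Itga10, Col9a3, Itgb1bp2, Itga2b, Col28a1, Col11a2, Col8a2, Col17a1, Itgb2l, Col6a4, Col9a1 and Col6a5, with highest values from 0.0138 to 0.395.

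The genes were spread over the nephron, with 1 cluster standing out. By the mean of the 4 mice, 15 of 55 genes (27.3%) were highest in MC, the mesangial and stromal cluster, beside 5.15% of all 11444 genes. The 15 were the fibrillar Col1a1, Col1a2, Col3a1 and Col5a1, the fibril-associated Col14a1 and Col16a1, the beaded-filament chains Col6a1 and Col6a3, the multiplexin Col15a1, the collagen IV chains Col4a1 and Col4a2, the laminin chains Lama2 and Lamc3, and the integrin subunits Itga1 and Itgb1, which pair as a collagen receptor. Of these, Col1a1, Col16a1, Col3a1, Col6a1 and Col5a1 had highest values of 0.513, 0.557, 0.640, 0.677 and 0.677, all in MC and little above 0.5. For such genes the filter and the place in MC are not independent, and the 11444 genes passed the same filter. Macrophage held 6 (10.9%, beside 13.3% of all genes), Podocytes 5 (9.09%, beside 4.61%), PT-S3-3 and IC-B-2 4 each, and PT-S1-S2-1, LH-AL-2, CD_PC and EC-2 3 each, beside 1.66%, 5.93%, 2.67%, 1.76%, 3.38% and 5.5% of all genes. LH-DL and IC-A held 2 each (beside 7.86% and 3.03%), and PT-S3-1, PT-S3-2, DCT, CNT and IC-B-1 1 each (beside 1.26%, 4.05%, 1.84%, 1.09% and 2.32%). InjuredPT-A, in which 17.4% of all genes were highest, was the highest cluster of none of the 55. The others with none were LH-AL-3 (10.4% of all genes), InjuredPT-B (3.39%), LH-AL-1 (2.14%), PT-S1-S2-2 (1.06%), DCT_CNT (0.0961%) and EC-1 (0.035%). The study reports the injured clusters almost only in mice given AAI. In InjuredPT-A without AAI, 62.6% (control) and 40.8% (hKLF6 OE) of genes were at 0, beside 22.5% and 22.2% with AAI. Both the count of none and the 17.4% rest on means that include the columns without AAI.

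**Figure D1:**
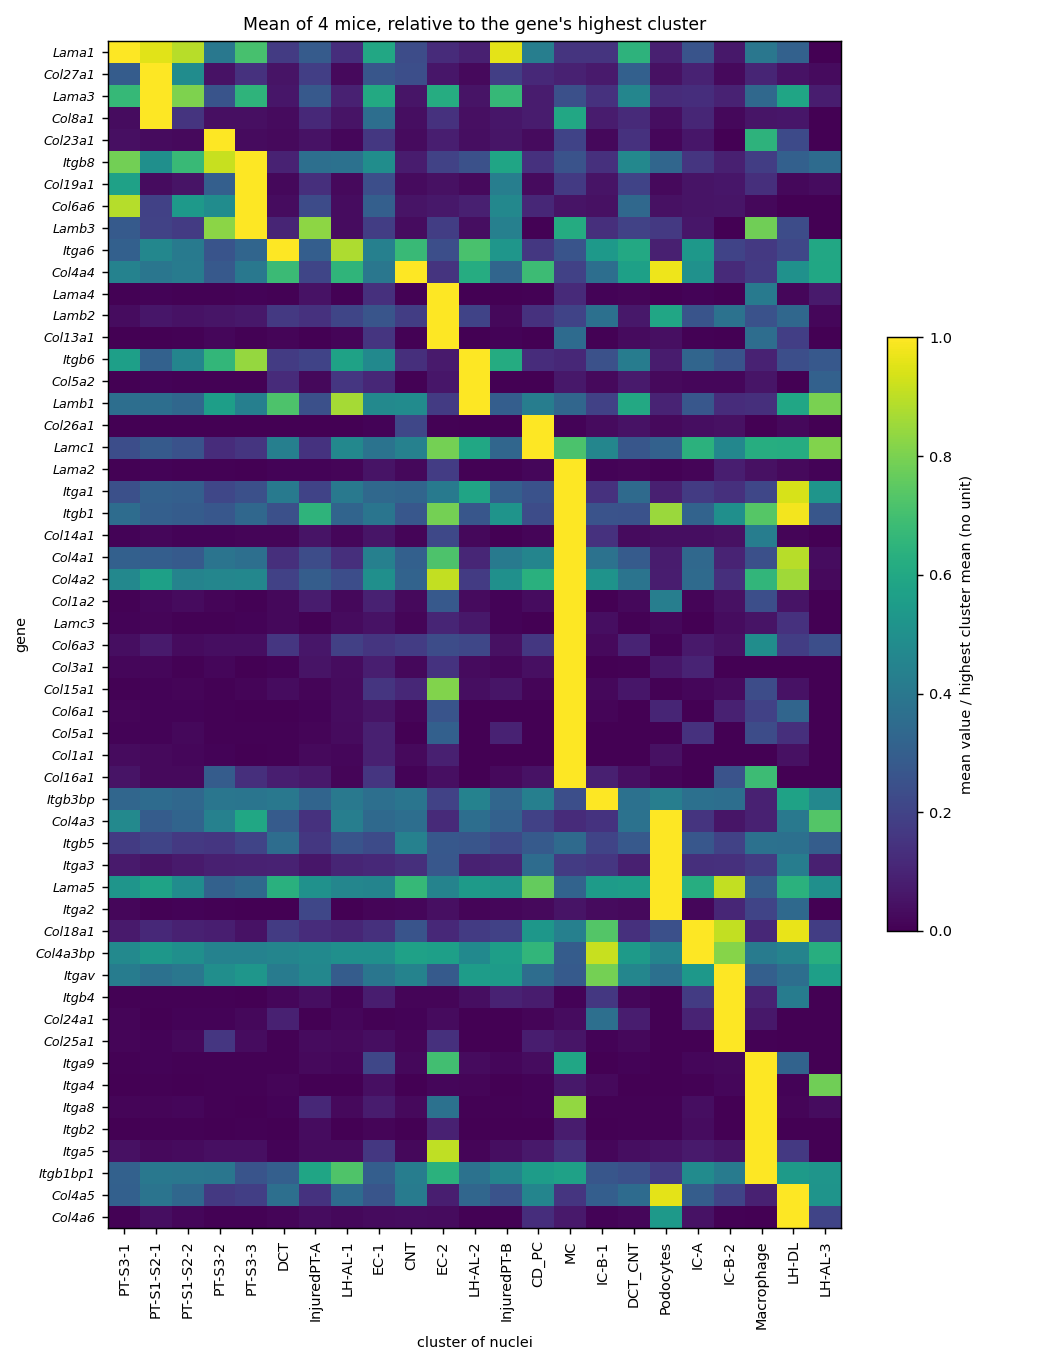
Heat map of the genes described here (rows) in 23 clusters (columns), where the color is the mean of the 4 mice divided by the same gene's highest cluster mean, from 0 to 1. The block of bright cells in the MC column is the 15 genes highest there, while Itgb1, Itgav, Col4a4 and Col4a3bp are spread over many clusters.

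Some genes marked a single cluster and others were found everywhere. The same cluster was highest in all 4 mice for 16 of the 55 genes (12.8% of all genes), and in 9 the lowest mouse of the highest cluster exceeded the highest mouse of the next (8.87% of all genes), among them Lama2, Col3a1 and Col1a1 in MC, Lama4 in EC-2, Itgb5 and Itga3 in Podocytes, Col26a1 in CD_PC, and Col27a1 in PT-S1-S2-1. Outside the injured clusters, Col3a1 and Col1a1 reached 0.5 in MC alone, so for them the filter and the place in MC are not independent. Col1a1 was also low there, with a highest value of 0.513. The mean reached 0.5 in all 23 clusters for 6 genes, in 1 to 3 clusters for 22 and in no cluster for 9. These counts were not taken over all genes, so they describe the 55 alone. With 1 of the mice left out the highest cluster changed for Col4a1, Col6a6, Col15a1, Col16a1, Col18a1, Lama1, Lama5, Lamb3, Itga4, Itga5, Itga8, Itgb1 and Itgb1bp1.

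Among the fibrillar collagens, those of the interstitium (types I, III and the α1 chain of V) were highest in MC. Col1a2 had 0.625, 1.16, 0.453 and 1.66 in MC, and Col3a1 had 0.433, 0.640, 0.608 and 0.477 there, beside a mean of 0.0785 in EC-2, the next cluster. Both were detected in MC in each mouse, and the 4 Col3a1 values lay close together. Col1a1 in MC was 0.0703, 0.174, 0.294 and 0.513, and Col5a1 0.0641, 0.418, 0.238 and 0.677. In each of Col1a2, Col1a1 and Col5a1 the AAI mouse had the higher value of its genotype.

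Col27a1, a fibrillar collagen known from cartilage, was instead highest in the early proximal tubule. In PT-S1-S2-1 it had 14.2, 10.9, 13.2 and 16.9, against a mean of 6.69 in PT-S1-S2-2. Col5a2, a chain of collagen V, was highest in LH-AL-2, a thick ascending limb cluster, at 13.01, 1.99, 4.62 and 0.00660, while its partner chain Col5a1 was highest in MC. The Col5a2 values therefore ran from the control mouse down to near 0 in the hKLF6 OE AAI mouse. Col24a1, a minor fibrillar collagen, was highest in the type B intercalated cluster IC-B-2 at 0.252, 1.76, 0.258 and 1.03, with both AAI mice above both mice without AAI.

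All 6 collagen IV chains passed the value of 0.5 and fell into distinct patterns. Col4a1 and Col4a2, the chains of the α1α1α2 network, were highest in MC, with 1.89, 2.53, 2.17 and 2.69 for Col4a1 and 2.45, 1.83, 1.53 and 2.32 for Col4a2. EC-2, the cluster with the highest Flt1, followed for Col4a2 at 2.51, 1.79, 1.26 and 1.81, so that the ranges of the 2 clusters overlapped. Podocytes, which sit on the mature glomerular membrane, had Col4a3 at 21.9, 15.5, 14.6 and 20.6, the highest cluster in every mouse. Col4a4 was as high in CNT (13.8, 13.6, 11.9 and 16.5) as in Podocytes (14.03, 12.7, 11.8 and 15.7). Col4a5 was highest in LH-DL (5.02, 4.16, 4.21 and 7.26) and nearly as high in Podocytes (4.23, 4.04, 4.43 and 7.09), and LH-DL also held podocyte genes. Col4a6, the chain of a further network with α5, was highest in LH-DL as well (1.97, 1.64, 3.33 and 0.708) and second in Podocytes at 0.556, 1.00, 0.892 and 1.66. Outside the glomerulus, Col4a3 and Col4a4 stayed above 0.5 on average in all 23 clusters, the proximal tubule included.

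**Figure D2:**
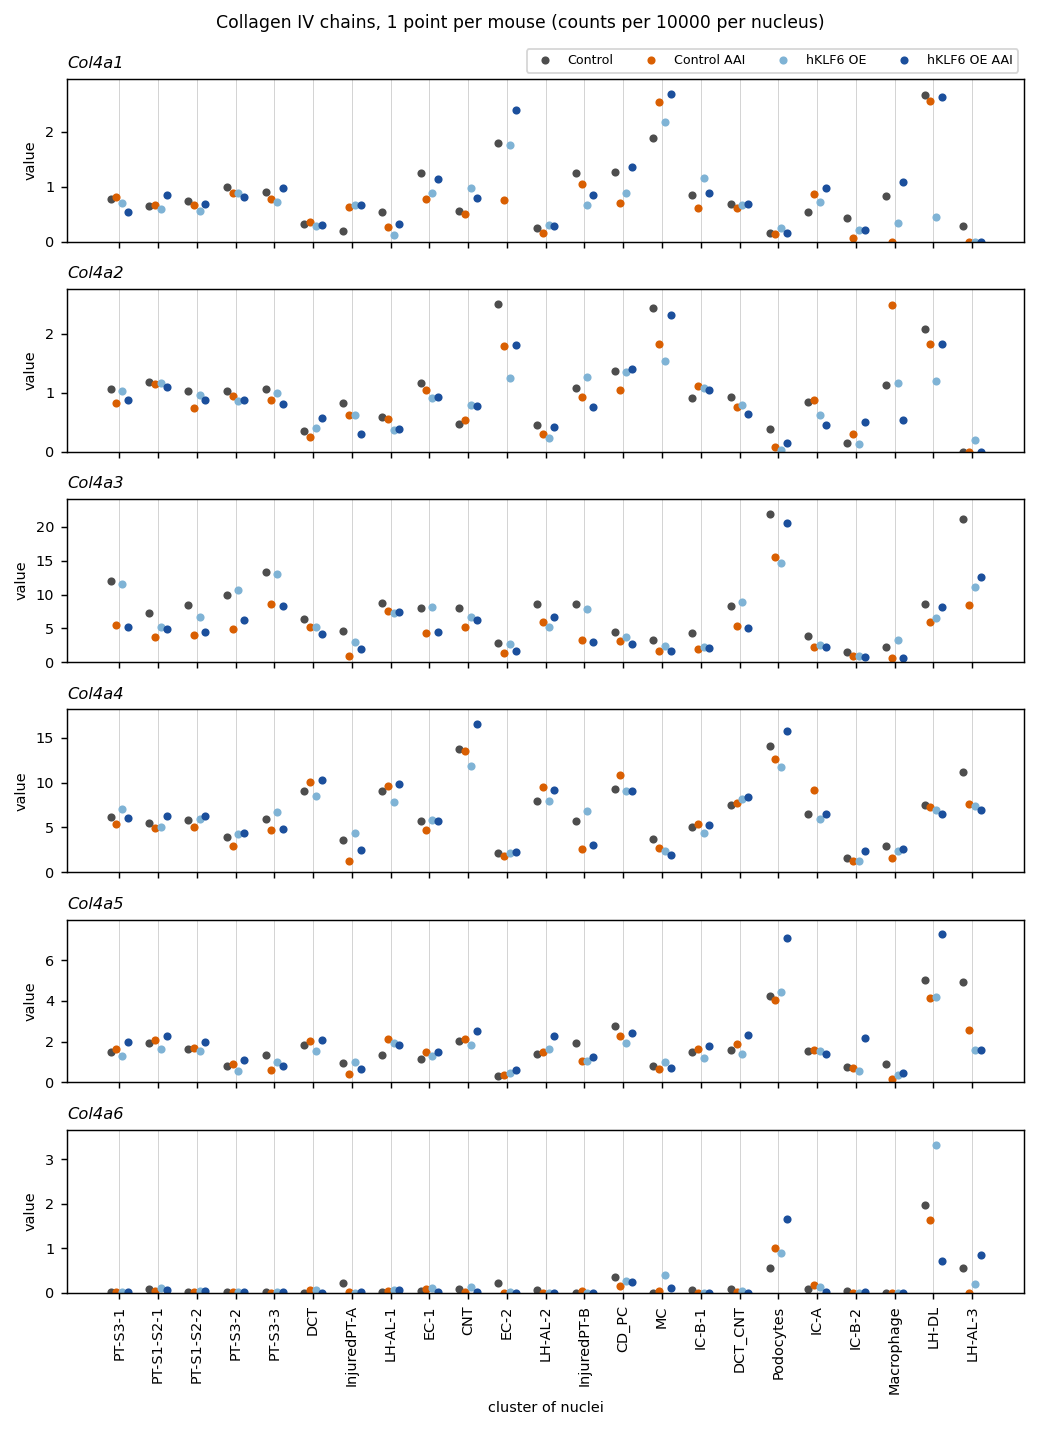
Values of the 6 collagen IV chains (vertical axes, counts per 10000 per nucleus, a scale of its own for each gene) in 23 clusters (horizontal axis), with 1 point per mouse. Col4a1 and Col4a2 peak in MC, EC-2 and LH-DL, Col4a3 in Podocytes, where it lies between 14.6 and 21.9, and Col4a4 in CNT and Podocytes.

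The collagen IV genes lie head to head in pairs. In the GENCODE annotation of GRCm38, Col4a4 (chromosome 1, 82448423 to 82586849, minus strand) and Col4a3 (82586921 to 82722059, plus strand) have 5′ ends 72 bases apart, and Col4a1 (chromosome 8, 11198423 to 11312826, minus strand) and Col4a2 (11312805 to 11449287, plus strand) share 22 bases at their 5′ ends. Across the 23 clusters within a mouse, Spearman's ρ was between 0.59 and 0.88 for Col4a1 with Col4a2, between 0.52 and 0.66 for Col4a3 with Col4a4, and between 0.76 and 0.81 for Col4a4 with Col4a5, which lies on another chromosome. These are descriptions over 23 clusters that share 1 library. Of 32 pairs of chains listed for comparison, which assemble with each other except Col1a2 with Col3a1, these 3 alone were above 0.5 in all 4 mice, 18 were above 0 in all 4, and 6 had the same highest cluster. Integrin α6 with β1, which form a laminin receptor, ran from −0.53 to −0.40, and Itgav with Itgb5 and with Itgb1 were also below 0 in all 4 mice.

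The RefSeq promoter windows of the collagen IV pairs are printed to show how close the start sites are, each from 250 bases before to 50 bases after the start, 5′ to 3′ on the gene's strand (GRCm38.p6). Capitals mark a GC box (GGGCGG) or a CACCC box (CACCC) on either strand, 2 short motifs bound by zinc finger factors of the Krüppel-like family, to which KLF6 belongs. The windows of Col4a1 (chr8:11312777-11313076, minus strand) and Col4a2 (chr8:11312555-11312854, plus strand) overlap by 78 bases, and that of Col4a4 (chr1:82586800-82587099, minus strand) lies across the start of Col4a3.
Col4a1: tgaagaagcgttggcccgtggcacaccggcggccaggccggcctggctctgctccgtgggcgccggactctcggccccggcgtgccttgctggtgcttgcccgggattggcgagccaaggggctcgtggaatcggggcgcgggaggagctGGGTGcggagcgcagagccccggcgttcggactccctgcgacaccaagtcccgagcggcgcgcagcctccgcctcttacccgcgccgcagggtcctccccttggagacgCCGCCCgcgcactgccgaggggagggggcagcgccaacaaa
Col4a2: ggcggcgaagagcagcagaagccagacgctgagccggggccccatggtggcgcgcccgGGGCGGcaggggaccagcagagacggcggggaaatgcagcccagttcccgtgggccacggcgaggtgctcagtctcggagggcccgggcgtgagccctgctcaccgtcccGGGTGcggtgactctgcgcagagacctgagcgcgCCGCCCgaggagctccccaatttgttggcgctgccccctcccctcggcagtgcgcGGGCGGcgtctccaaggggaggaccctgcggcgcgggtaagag
Col4a4: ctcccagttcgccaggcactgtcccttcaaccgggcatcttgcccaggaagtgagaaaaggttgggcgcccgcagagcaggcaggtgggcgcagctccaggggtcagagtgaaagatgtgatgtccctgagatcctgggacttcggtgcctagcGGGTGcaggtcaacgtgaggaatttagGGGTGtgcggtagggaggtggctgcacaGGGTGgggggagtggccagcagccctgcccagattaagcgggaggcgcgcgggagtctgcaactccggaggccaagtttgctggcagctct
The Col4a1 window held 1 GC box and 1 CACCC box, the Col4a2 window 3 and 1, and the Col4a4 window 0 and 3. No GC box overlapped a CACCC box in them. Of 44 windows of 40 of the 55 genes, 54.5% held a GC box and 72.7% a CACCC box, beside 35.7% and 57.5% of all 32851 windows. The other motifs counted went the other way. A CCAAT box (CCAAT) was in 22.7% and a TATA box (TATAAA) in 4.55%, beside 37.4% and 13.6% of all windows. Base composition was not taken into account. A match is a stretch of letters and not a site of binding.

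The remaining collagens were highest in collecting duct, stromal, vascular and proximal tubule clusters. Col26a1 was highest in CD_PC, the principal cells, at 10.8, 8.64, 5.995 and 8.44, against 1.79 on average in CNT. Col18a1, the precursor of endostatin, was highest in IC-A at 3.64, 3.13, 4.12 and 3.42, with LH-DL at 6.20, 2.28, 1.91 and 3.45. Col14a1 had 2.75, 3.45, 2.23 and 2.37 in MC. Each was thus high in every mouse of its cluster. Col8a1, a short-chain collagen, was highest in PT-S1-S2-1 (1.24, 1.41, 0.807 and 1.72), and Col19a1, a fibril-associated collagen, in PT-S3-3 (2.13, 0.914, 2.29 and 0.623). The transmembrane Col23a1 was highest in PT-S3-2 (1.13, 0.457, 0.909 and 0.411), where both AAI mice were lower, Col13a1 in EC-2 (0.425, 0.319, 0.375 and 1.304) and Col25a1 in IC-B-2 (1.05, 0.136, 0.285 and 0). Col6a6 was highest in PT-S3-3 by the mean (0.160, 0.405, 0.0883 and 1.25), although in the hKLF6 OE AAI mouse PT-S3-1 was higher, at 1.61. In MC, Col15a1 (0.603, 0.147, 0.543 and 0.617), Col6a1 (0.588, 0.0934, 0.677 and 0.198) and Col16a1 (0.236, 0.557, 0.0789 and 0.0878) did not reach 0.5 on average.

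The laminin α chains divided the kidney among them. Lama2, an α chain of muscle and mesenchyme, had 5.86, 6.91, 3.00 and 7.09 in MC, against 1.03 on average in EC-2. Lama4, known from vessels, had 2.56, 1.79, 2.68 and 2.84 in EC-2. Lama5, which forms the mature glomerular laminin with β2 and γ1, was highest in Podocytes at 0.554, 1.302, 1.54 and 1.78, a range that overlapped that of IC-B-2 (0.819 to 1.48). Lama3 was highest in PT-S1-S2-1 at 1.55, 1.57, 2.53 and 0.0710, so that the hKLF6 OE AAI mouse stood far below the other 3. Lama1, a chain of the early tubular membrane, was highest in PT-S3-1 by the mean (1.19, 0.600, 0.681 and 0.526) but was highest there in none of the 4 mice, and the next cluster, InjuredPT-B, had 1.66, 0.403, 0.414 and 0.402.

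Among the β and γ chains, Lamb1 was highest in LH-AL-2 (2.40, 2.51, 1.85 and 2.61) and Lamb2 in EC-2 (0.319, 0.787, 1.096 and 0.675), followed by Podocytes at 0.426 on average. Lamb3 was low in PT-S3-3 (0.131, 0.320, 0.120 and 0.555) and did not reach 0.5 on average in any cluster. Lamc1, the common γ chain, was highest in CD_PC by the mean (1.34, 1.74, 0.885 and 1.69) and reached 0.5 on average in 14 clusters. CD_PC was its highest cluster in 1 mouse alone, the hKLF6 OE AAI mouse. The next cluster by the mean, LH-AL-3, had 3.04, 0.692, 0.158 and 0.699. Lamc3 was highest in MC at 1.08, 0.175, 1.76 and 0.295, and both AAI mice were below both mice without AAI.

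Of the integrin α subunits, Itga1, which binds collagen IV, was highest in MC (6.67, 5.44, 4.58 and 4.77) and Itga2 in Podocytes (0.640, 0.962, 0.419 and 0.936). Itga3, the laminin receptor subunit on which podocytes depend, had 2.03, 2.63, 1.25 and 2.45 in Podocytes, against 0.885 on average in LH-DL. Itga6 was highest in DCT (4.68, 5.37, 5.51 and 5.94). Itgav, an α subunit of receptors that bind the RGD motif, was highest in IC-B-2 (4.67, 7.97, 4.43 and 8.30) and next in IC-B-1 (3.21, 6.99, 3.71 and 6.11). In both clusters the AAI mice exceeded the others. Itga4, Itga5, Itga8 and Itga9 were highest in Macrophage by the mean, with Itga9 at 4.27, 1.12, 3.10 and 3.56. Itga8, known from mesangial cells, had 0.622, 2.67, 0.804 and 0.669 in Macrophage and 0.817, 1.55, 1.04 and 0.576 in MC. In both mice without AAI it was higher in MC. Itga4 had 2.38, 1.68, 2.18 and 1.06 in Macrophage and 2.52, 1.41, 0.158 and 1.64 in LH-AL-3. The Macrophage cluster also held endothelial genes, as above, and the part of these in the values of the 4 subunits was not tested.

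Of the β subunits, Itgb1 was highest in MC (2.63, 3.36, 2.55 and 3.47), level with LH-DL (4.11, 1.45, 3.34 and 2.91), and reached 0.5 on average in all 23 clusters. Itgb5 was highest in Podocytes (4.29, 3.65, 3.90 and 5.03), Itgb6 in LH-AL-2 (9.04, 6.73, 4.92 and 4.44), Itgb8 in PT-S3-3 (2.37, 5.56, 2.85 and 5.18), Itgb4 in IC-B-2 (1.36, 0.567, 1.25 and 0.944) and the leukocyte subunit Itgb2 in Macrophage (0.182, 0, 1.21 and 1.36). Itgb6 and Itgb8, the TGF-β-activating partners of αv, were thus both highest in epithelium, and Itgb6 was next highest in PT-S3-3 at 5.17, 4.61, 2.31 and 9.08. The genes that are not chains were highest in IC-A (Col4a3bp, 1.89, 2.88, 2.84 and 3.37), IC-B-1 (Itgb3bp, 1.07, 1.16, 2.21 and 0.957) and Macrophage (Itgb1bp1, 0, 0.674, 0.160 and 0.199).

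In the injured proximal tubule the question was how these genes differed from those of less injured tubule in the same kidney. InjuredPT-A, whose marker in the study is Polr2a (24.3 and 23.3 in the AAI mice, beside 4.70 and 4.14 in InjuredPT-B), and InjuredPT-B, whose marker is Cxcl1 (3.75 and 5.35, beside 4.80 and 2.52 in InjuredPT-A), were compared with the mean of the 5 normal PT clusters of the same AAI mouse, as a difference of log2(value + 1), where 1 side or the other reached 0.5, and a gene was called from a difference of 0.2 in the same direction in both AAI mice. Cxcl1 was higher in InjuredPT-B than in InjuredPT-A in the hKLF6 OE AAI mouse alone. The clusters were made from the expression of genes such as these, so this is a description.

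In InjuredPT-A, chains of the α3α4α5 network and the αv partners β6 and β8 were low while the β1 and α6 subunits were high. Of 16 of the 55 genes compared, 9 were lower and 2 higher, and 5 passed in neither direction, beside 27% lower and 43.3% higher of 5008 genes. The median difference of the 16 was −0.39 in the control AAI mouse and −0.43 in the hKLF6 OE AAI mouse, beside 0.19 and 0.15 for all genes.

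Col4a3 was at 0.884 in InjuredPT-A against 5.36 in the normal PT clusters of the control AAI mouse, and at 1.98 against 5.78 in the hKLF6 OE AAI mouse, differences of −1.75 and −1.19. Col4a4 was at 1.21 against 4.61 and at 2.47 against 5.59 (−1.34 and −0.92), and Col4a5 differed by −0.74 and −0.66. Itgb6 was at 0.467 against 2.78 and at 0.840 against 5.21 (−1.37 and −1.75). In each of these genes InjuredPT-A lay below all 5 normal clusters in both mice. Itgb8 was at 1.11 against 4.403 and at 0.908 against 3.45 (−1.35 and −1.22), Itga1 differed by −0.86 and −0.57, Lamb1 by −0.56 and −0.31 and Col4a2 by −0.23 and −0.55. These 4 also lay below all 5 normal clusters in both mice, which makes 8 of the 16 genes, beside 20.5% of all genes. The 2 genes that were higher lay above all 5 normal clusters, beside 41.9%.

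Col27a1, the last of the 9, was at 1.23 against 3.99 and at 2.54 against 6.73 (−1.17 and −1.13), but within the span of the normal clusters (0.481 to 10.9 and 0.507 to 16.9). Its direction depended on the segment: against PT-S3-2 alone the smaller of the 2 differences was 0.59 and against PT-S3-3 alone 0.41, both higher in InjuredPT-A.

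The largest rise was that of Itgb1, at 3.33 against 0.925 and at 2.62 against 0.961, differences of 1.17 and 0.88, and both values exceeded every normal PT cluster of the mouse. Itgb1 spans chromosome 8, 128685654 to 128733200 (GRCm38, plus strand). Itga6, a laminin-binding partner of β1 on chromosome 2 (71745616 to 71858416, plus strand), was at 2.58 against 1.57 and at 2.32 against 1.40 (0.48 and 0.47). Itga6 was however near its level in the mouse without AAI (2.41 and 2.20), and with that mouse as the reference its smaller difference was 0.05. The genes called in neither direction were Itgav (0.09 and 0.29), Col4a3bp (0.17 and 0.16), Lama5 (−0.04 and −0.14), Col4a1 (−0.11 and −0.08) and Itgb5 (−0.17 and −0.24).

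**Figure D3:**
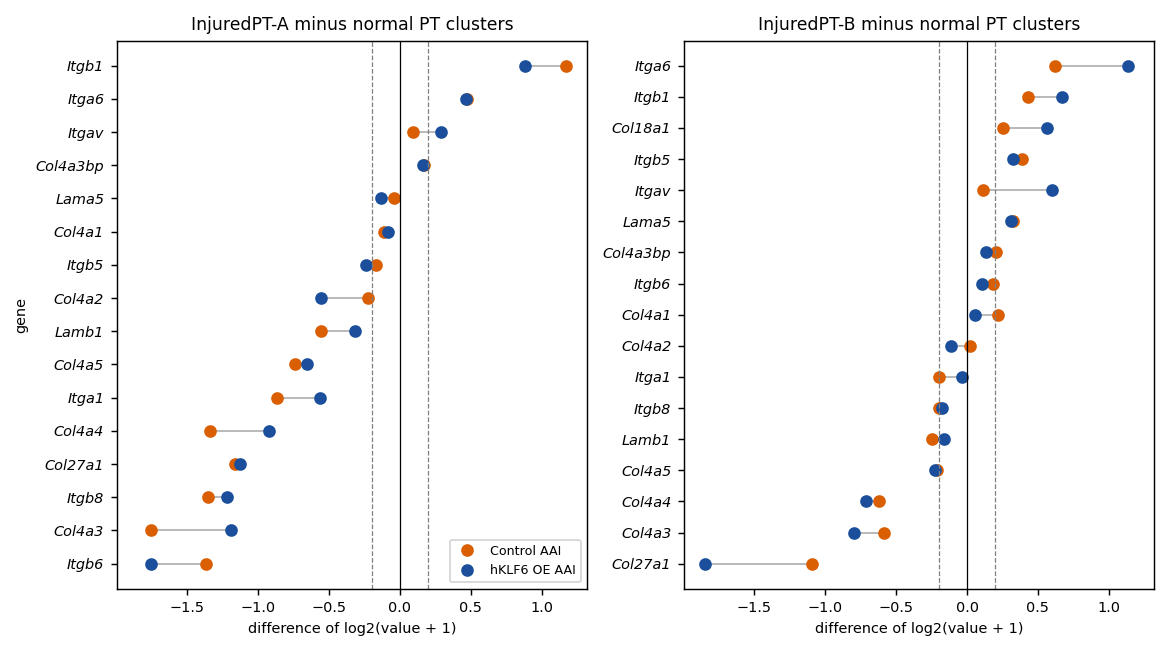
Difference of log2(value + 1) between InjuredPT-A (left) or InjuredPT-B (right) and the mean of the 5 normal PT clusters of the same mouse (horizontal axes) for each gene compared (vertical axes), with 1 point per AAI mouse and dashed lines at 0.2 in both directions. Itgb1 and Itga6 lie to the right in both panels, and Col4a3, Col4a4 and Col27a1 to the left in both.

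Genomic span moved with these differences. In InjuredPT-A, Spearman's ρ of the difference with span was −0.62 and −0.66 over 4967 genes and −0.56 and −0.54 over the 16 genes, in the control AAI and hKLF6 OE AAI mouse. Of the 10 genes over 100 kb, 7 were lower and 1 higher, beside 71.7% and 6.74% of all genes over 100 kb, so the share lower was near that of long genes in general. Of the 6 up to 100 kb, 2 were lower (Itgb8 at 80.8 kb and Lamb1 at 64.4 kb) and 1 was higher (Itgb1, the shortest of the 16 at 47.5 kb), beside 14.5% lower and 53.5% higher of all genes up to 100 kb. In InjuredPT-B, 4 of 11 genes over 100 kb were lower and 3 higher, beside 27.2% and 14.5% of all such genes, and of 6 up to 100 kb 2 were higher and 0 lower, beside 26.5% and 8.17%. There ρ was −0.28 and −0.12 over all genes and −0.48 and −0.54 over the 17 genes. The correlations are across genes of 1 library, which are not independent, and the part of length was not tested.

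**Figure D4:**
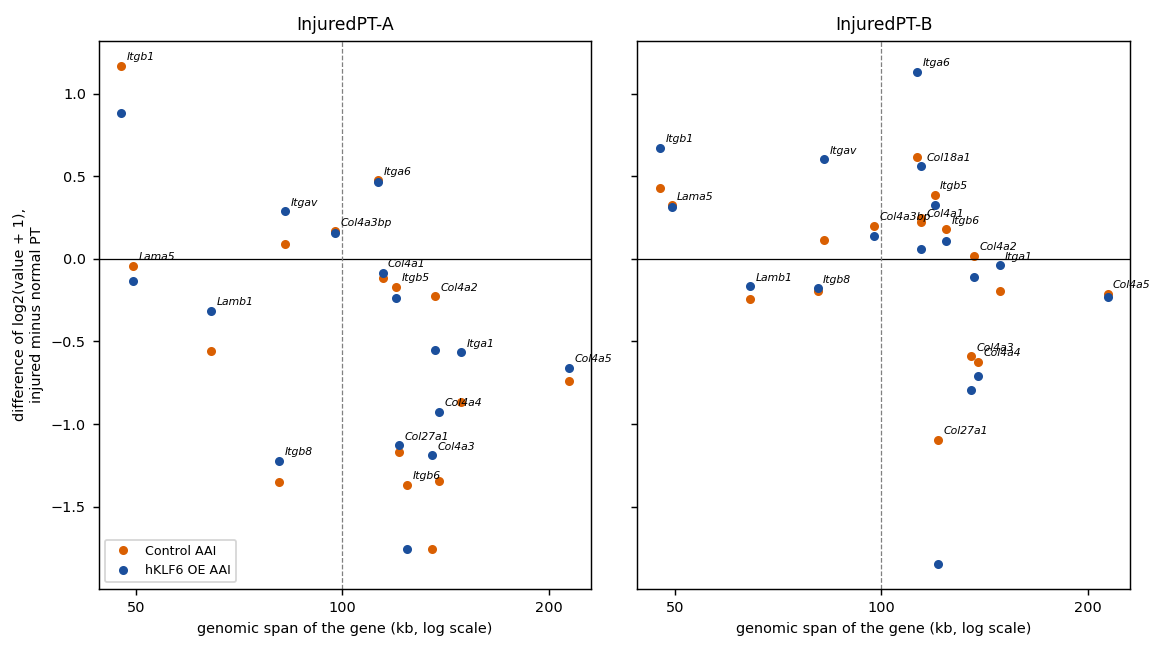
Genomic span (horizontal axes, kb, log scale) and difference of log2(value + 1) from the normal PT clusters (vertical axis) of the genes compared in InjuredPT-A (left) and InjuredPT-B (right), with 1 point per gene and AAI mouse and a dashed line at 100 kb. In InjuredPT-A most genes to the right of the line are below 0, with Itga6 above it, while in InjuredPT-B they lie on both sides.

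InjuredPT-B was different in balance. Of 17 of the 55 genes compared, 5 were higher and 4 lower, and 8 passed in neither direction, beside 23.4% higher and 13.1% lower of 4148 genes, and the medians were 0.11 and 0.06 beside 0.11 and 0.10 for all genes. The genes higher were Itga6 (2.95 against 1.57 and 4.27 against 1.40, differences of 0.62 and 1.13), Itgb1 (1.59 against 0.925 and 2.13 against 0.961, 0.43 and 0.67), Itgb5 (0.39 and 0.33), Lama5 (0.32 and 0.31) and Col18a1 (0.25 and 0.56). All 5 lay above all 5 normal clusters in both mice, beside 20.8% of all genes.

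The genes lower were Col27a1 (1.34 against 3.99 and 1.15 against 6.73, −1.09 and −1.85), Col4a3 (3.23 against 5.36 and 2.90 against 5.78, −0.59 and −0.80), Col4a4 (−0.62 and −0.71) and Col4a5 (−0.21 and −0.23). Of these, Col4a3 and Col4a4 lay below all 5 normal clusters in both mice, beside 5.88% of all genes. Against PT-S3-2 and PT-S3-3 alone, Col27a1 and Col4a5 were higher in InjuredPT-B, with smaller differences of 0.33 and 0.48 for Col27a1 and 0.090 and 0.31 for Col4a5. Itgb6 (0.18 and 0.11) and Itgb8 (−0.20 and −0.18), both lower in InjuredPT-A, passed in neither direction. The others called in neither were Itgav, Col4a1, Col4a2, Col4a3bp, Itga1 and Lamb1.

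Set against each other directly, InjuredPT-A was lower than InjuredPT-B in 10 of 17 genes and higher in 1, Itgb1, beside 26.7% lower and 30.6% higher of 4977 genes. The 10 were Col4a2, Col4a3, Col4a4, Col4a5, Col18a1, Lama5, Itga1, Itgb5, Itgb6 and Itgb8. Itga6, Itgav, Col27a1, Col4a1, Col4a3bp and Lamb1 passed in neither direction.

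Other genes of the pathway came from lists set for matrix, collagen processing, further receptors and integrin adhesion, and each list held genes in both directions in InjuredPT-A. The counts stand beside the 43.3% higher and 27% lower of all genes in InjuredPT-A and the 23.4% and 13.1% in InjuredPT-B. Of 4 collagen processing genes compared in InjuredPT-A, 3 were higher, the prolyl hydroxylase subunits P4ha1 (0.75 and 0.57) and P4hb (0.49 and 0.71) and the lysyl hydroxylase Plod2 (0.70 and 0.68), and the protease inhibitor Timp3 was lower (−1.41 and −1.07). P4ha1, Plod2 and Timp3 passed in the same directions in InjuredPT-B. Of 3 other receptors, the collagen receptor Ddr1 (0.95 and 0.47) and the syndecan Sdc4 (1.22 and 1.06) were higher in InjuredPT-A and the dystroglycan gene Dag1 (−0.24 and −0.40) was lower. Ddr1 and Sdc4 were higher in InjuredPT-B too.

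Of 6 other matrix genes compared in InjuredPT-A, osteopontin (Spp1, 0.41 and 0.84) was higher and Fras1, Tinag and Ntn4 were lower, Tinag being an antigen of the tubular basement membrane (−0.95 and −1.18). Of 13 adhesion genes, which link integrins to actin, 3 were higher (Vcl, Fermt1 and Actn4) and 5 lower (Tln1, Tln2, Parva, Tns1 and Tns3), with Tns1 at 2.70 against 15.9 and 3.53 against 18.3. In InjuredPT-B, 6 of the 13 were higher (Vcl, Lims1, Fermt1, Fermt2, Pxn and Bcar1) and 2 lower (Tln2 and Tns1). Genes of this list thus passed in both directions in each cluster.

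The next question was how these genes differed between mice with and without AAI in the 5 normal PT clusters, in each genotype. In the control genotype, 3 of 19 genes compared were higher with AAI, beside 11.7% of 4052 genes, and 7 were lower, beside 456 of the 4052, so that 10 of 19 passed in either direction, beside 23% of genes. In the hKLF6 OE genotype, 6 of 21 were higher and 4 lower, beside 19.5% and 15.4% of 4133 genes. Of 19 genes compared in both genotypes, 2 were higher in both, 3 were lower in both and 2 went in opposite directions, beside 7.66%, 5.83% and 1.26% of 3892 genes.

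Col4a3 was lower with AAI in both genotypes. Its mean over the 5 normal PT clusters was 10.2 in the control, 5.36 in the control AAI, 9.41 in the hKLF6 OE and 5.78 in the hKLF6 OE AAI mouse, differences of −0.82 and −0.62. In PT-S3-1 the values were 12.04, 5.48, 11.5 and 5.15, with both AAI mice at less than the others. Col4a4, whose start site is 72 bases away, had 5.49, 4.61, 5.83 and 5.59, differences of −0.21 and −0.05. Col4a5, the third chain of the network, had 1.45, 1.38, 1.21 and 1.64 (−0.04 and 0.26).

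Itga6 (2.41, 1.57, 2.20 and 1.40, differences of −0.41 and −0.41) and Col19a1 (0.852, 0.364, 0.929 and 0.196, −0.44 and −0.69) were also lower in both genotypes. Lama1 was lower with AAI in the control genotype only by the threshold (0.897, 0.417, 0.590 and 0.469, −0.42 and −0.11), and that difference between genotypes was not tested. The subunits Itgav and Itgb8, which form a receptor that activates TGF-β, were the 2 genes higher in both. Itgav had 2.33, 3.62, 2.16 and 3.09 (0.47 and 0.37) and Itgb8 had 2.11, 4.403, 2.41 and 3.45 (0.80 and 0.38). Itgb1 had 0.962, 0.925, 0.876 and 0.961 in the same clusters, differences of −0.03 and 0.06, and Col4a1 and Col4a2 did not pass the threshold either.

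Itgb6 (chromosome 2, 60598292 to 60722643, minus strand) and Col27a1 (chromosome 4, 63214004 to 63334991, plus strand) went in opposite directions. Itgb6 had 4.51, 2.78, 1.73 and 5.21, so AAI differed by −0.54 in the control genotype and 1.19 in the hKLF6 OE genotype. Col27a1 had 6.15, 3.99, 4.83 and 6.73, differences of −0.52 and 0.41. By this mean the hKLF6 OE AAI mouse was highest in both genes, and for Itgb6 the hKLF6 OE mouse without AAI was lowest. For Itgb6 the hKLF6 OE AAI mouse was highest only in PT-S3-2 and PT-S3-3 (7.40 and 9.08, beside 3.61 and 5.17 in the control mouse). In PT-S1-S2-1 and PT-S1-S2-2 the control mouse was highest (3.80 and 5.09, beside 1.69 and 2.98). In PT-S3-1 those mice were level (4.89 and 4.88). Whether the genotypes differ in their response was not tested, since each value is 1 mouse.

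The Col27a1 window lies inside the GENCODE span of the gene, past its start at 63214004, and so not at that 5′ end. Promoter windows of these 2 genes are shown as those of the genes with opposite differences, again with GC and CACCC boxes in capitals: Itgb6 at chr2:60722554-60722853 (minus strand), the window at the annotated 5′ end of the gene, and Col27a1 at chr4:63215162-63215461 (plus strand).
Itgb6: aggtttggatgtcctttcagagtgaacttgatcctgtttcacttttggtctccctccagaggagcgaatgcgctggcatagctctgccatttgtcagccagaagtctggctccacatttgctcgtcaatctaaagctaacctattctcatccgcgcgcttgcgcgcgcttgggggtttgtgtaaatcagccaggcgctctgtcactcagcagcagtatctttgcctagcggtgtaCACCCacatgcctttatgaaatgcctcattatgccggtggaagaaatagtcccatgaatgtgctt
Col27a1: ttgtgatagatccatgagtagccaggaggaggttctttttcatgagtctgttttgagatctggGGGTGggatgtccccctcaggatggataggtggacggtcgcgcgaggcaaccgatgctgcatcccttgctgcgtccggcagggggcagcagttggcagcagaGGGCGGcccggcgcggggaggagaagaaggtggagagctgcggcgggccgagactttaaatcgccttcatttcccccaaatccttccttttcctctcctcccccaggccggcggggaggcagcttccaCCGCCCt
The Itgb6 window shown held 0 GC boxes and 1 CACCC box, and the Col27a1 window 2 and 1. A further Itgb6 window (chr2:60673644-60673943, minus strand), not shown, held 0 GC boxes and 0 CACCC boxes.

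**Figure D5:**
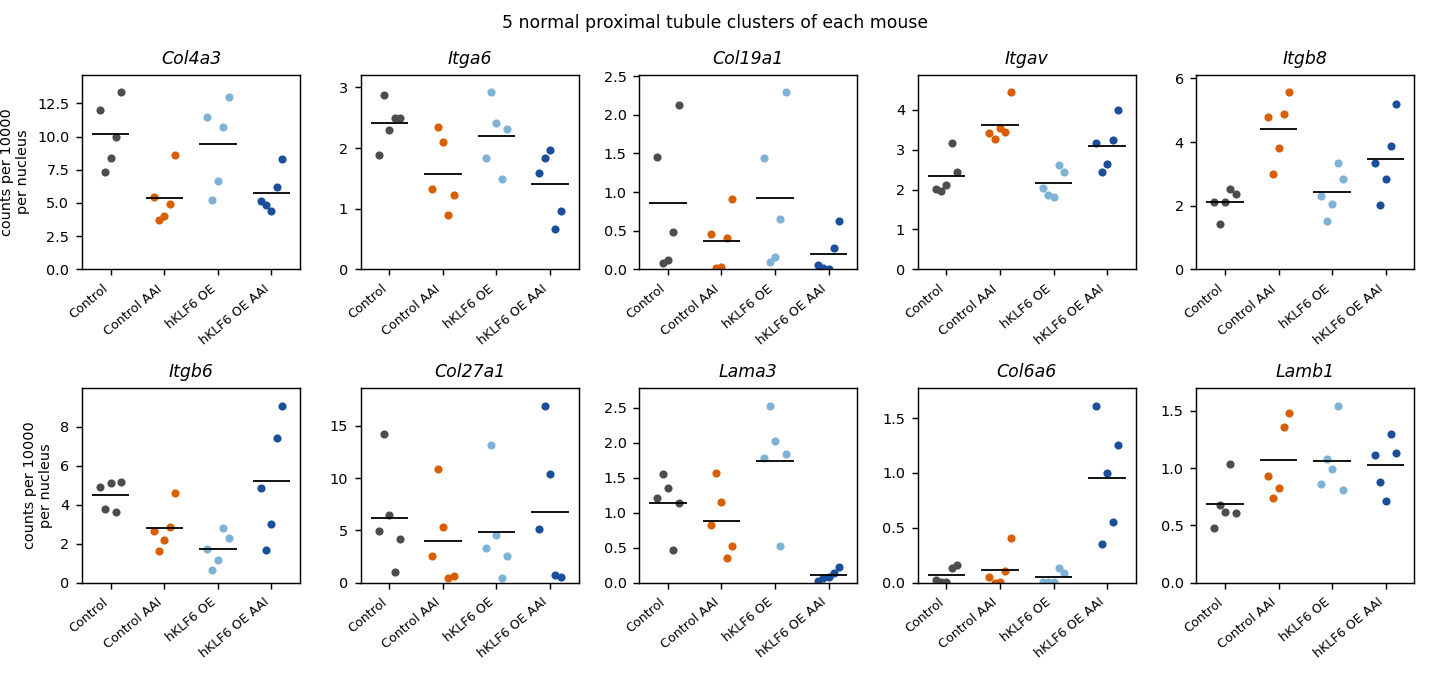
Values (vertical axes, counts per 10000 per nucleus) of 10 genes in the 5 normal PT clusters of each mouse (horizontal axes), with 1 point per cluster and a line at their mean. By the mean, Col4a3, Itga6 and Col19a1 are lower and Itgav and Itgb8 higher in both AAI mice. The means of Itgb6 and Col27a1 are highest in the hKLF6 OE AAI mouse, although by cluster Itgb6 is highest there only in PT-S3-2 and PT-S3-3. Lama3 and Col6a6 stand apart in that mouse alone.

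Between genotypes without AAI, 2 of 20 genes were higher in the hKLF6 OE mouse, Lama3 (0.35) and Lamb1 (0.29), and 3 lower, Itgb6 (−1.01), Col27a1 (−0.29) and Lama1 (−0.25), beside 7.84% and 9.33% of 4041 genes. With AAI, 4 of 18 were higher in the hKLF6 OE mouse, Col6a6 (0.81), Itgb6 (0.71), Col27a1 (0.63) and Col4a4 (0.23), and 2 lower, Lama3 (−0.77) and Itgb8 (−0.28), beside 6.32% and 7.74% of 3942 genes. Itgb6 and Col27a1 were thus on opposite sides in the 2 AAI states. Lamb1 had 0.684, 1.07, 1.06 and 1.03, with the control mouse alone low.

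Lama3 and Col6a6 set the hKLF6 OE AAI mouse apart from the other 3. Lama3 had 1.14, 0.883, 1.74 and 0.107 in the normal PT clusters and was lowest in that mouse in 11 of the 11 clusters outside the injured ones in which it reached 0.5. Col6a6, a collagen VI chain, had 0.0664, 0.113, 0.0485 and 0.957 and was highest in that mouse in 5 of 5 clusters. The 5 and 11 clusters are parts of the same 4 kidneys and not replicates.

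Across the 21 clusters outside the injured ones, Col4a3 was lower with AAI in all 21 in the control genotype and in 16 of 21 in the hKLF6 OE genotype. Itgav was higher with AAI in both genotypes in 16 of 21, and Itgb6 was lower in the control and higher in the hKLF6 OE genotype in 14 of 21. For Itgb6, the control mouse without AAI was the highest mouse in 14 of 21 clusters. The hKLF6 OE mouse without AAI was the lowest in 15 of 21. These counts of clusters were not taken over all genes. Slc34a1, a gene of the proximal tubule found in every cluster, was lower with AAI in both genotypes in 21 of 21, Slc7a13 in 15, Slc5a2 in 13, Lrp2 and Slc13a3 in 12 each, Slc5a12 in 3 and Cyp7b1 in 0. The sum of the 7 PT markers was lower in 19 of 21. The part of these markers in the values of Col4a3 outside the PT was not tested. Over 344 combinations of gene and cluster outside the PT, at a difference of 0.2, 38.7% were higher and 21.2% lower with AAI in the hKLF6 OE genotype, beside 32.3% and 27.7% for all genes. Over 346 in the control genotype these were 27.7% and 33.2% beside 28.6% and 26.7%. Between genotypes without AAI, 17.2% of 349 were higher and 39.5% lower in the hKLF6 OE mouse, beside 24.3% and 29.9%. With AAI, 29.9% of 344 were higher and 21.8% lower in the hKLF6 OE mouse, beside 23.9% and 27.4%. The hKLF6 OE mouse without AAI is the reference of the AAI difference in its genotype, and its part was not tested.

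Outside the PT, differences were called from 0.5 in the same direction in both genotypes. In LH-AL-2, Col5a2 was lower with AAI in both (−2.23 and −2.48) and lower in the hKLF6 OE than in the control mouse in both AAI states (−1.32 and −1.57), beside 1.37% and 0.238% of genes in that cluster. Itgb6 was lower in the hKLF6 OE mouse in LH-AL-2 in both AAI states (−0.76 and −0.51), which is the opposite of its place with AAI in the normal PT clusters. Lamc3 was lower with AAI in MC (−0.83 and −1.09), beside 1.34% of genes there, and Col6a3 was lower in hKLF6 OE in MC (1.11, 1.00, 0.331 and 0.416, −0.66 and −0.50), beside 0.97%.

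Col18a1 was lower with AAI in CD_PC (2.37, 1.22, 2.54 and 1.47, −0.60 and −0.52), beside 1.32%. Itgav was higher with AAI in IC-B-1 (0.92 and 0.59), beside 0.859%. Col4a3 was lower with AAI in EC-1 (7.96, 4.24, 8.18 and 4.45, −0.77 and −0.75), in EC-2 (2.87, 1.34, 2.71 and 1.62, −0.73 and −0.50) and in DCT_CNT (8.26, 5.33, 8.91 and 4.98, −0.55 and −0.73), beside 0.974%, 1.1% and 1% of genes. In the same clusters Slc34a1 had 45.3, 24.2, 34.2 and 24.5 (EC-1), 20.0, 11.8, 17.5 and 13.2 (EC-2), and 40.4, 19.3, 30.1 and 22.4 (DCT_CNT). Slc5a12, of the same marker list, was higher with AAI there, at 13.5, 24.1, 14.2 and 17.4 (EC-1), 3.53, 6.61, 4.80 and 6.21 (EC-2), and 12.2, 16.6, 12.1 and 16.6 (DCT_CNT).

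Other differences were in clusters with 50% or more of genes at 0. In IC-B-2, Itgav (0.66 and 0.78) and Col24a1 (1.14 and 0.69) were higher with AAI, beside 2.21%, and Lama2 was higher in hKLF6 OE (0.0546, 0, 1.01 and 0.867), beside 0.795%. In Macrophage, Col4a3 was lower with AAI (2.19, 0.606, 3.20 and 0.675), beside 5.97%, and Itgb2 higher in hKLF6 OE, beside 4.17%. In LH-DL, Lama3 was lower with AAI (1.98, 0.257, 0.922 and 0.206), beside 4.07%. In LH-AL-3, Col5a2 was lower with AAI and listed at 0 in both AAI mice, beside 7.58%, and with hKLF6 OE Itgb6 and Itgb1 were higher, beside 5.62%, and Col27a1 was lower, beside 7.05%.

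Differences of opposite sign in the 2 genotypes, past 0.5 in each, were found outside the PT for Itgb6 in EC-1 and DCT_CNT, Col27a1 in DCT_CNT and Col18a1 in MC and Podocytes, beside 0.0475%, 0.0752%, 1.1% and 0.644% of genes in EC-1, DCT_CNT, MC and Podocytes. In the clusters with many genes at 0 there were 2 in Macrophage (Col4a1 and Itga3), 3 in LH-DL (Col18a1, Col4a3bp and Itgb8) and 4 in LH-AL-3 (Lamc1, Itga4, Col4a6 and Itgb8), beside 8.1%, 7.29% and 12.7% of genes. Differences between genotypes of opposite sign in the 2 AAI states were found for Itgb6 in DCT_CNT (−0.90 and 0.51, beside 0.181%) and Col18a1 in Podocytes (0.87 and −0.57, beside 1.05%), and with many genes at 0 for Itga3 and Col14a1 in Macrophage, Col4a6 in LH-DL and Col4a3 and Itgb8 in LH-AL-3, beside 7.37%, 8.6% and 13.5%.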

How the data were processed

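Nuclei of kidney cortex from 4 mice, 1 per group, were sequenced on the 10x platform. The authors counted reads with Cell Ranger 3.1.0 on a pre-mRNA reference (mm10), kept nuclei with 200 to 6000 genes and up to 10% mitochondrial reads, and clustered them in Seurat 4.3. How doublets were treated in these libraries is not given in the sources used here. The deposited signal values are mean normalized expression per cluster and mouse, scaled to 10000 per column. The table gives neither depth nor the number of nuclei, hence no interval. Of 19632 rows, 23 with date-like names were left out, and 0 columns remained unmapped.

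The genes and the lists were chosen with earlier results of these data known. Differences of log2(value + 1) were taken for genes with the larger value at least 0.5 and called from 0.2 (0.5 outside the PT), with no test. Values are given for the highest gene of each role, all collagen IV and laminin chains (1 gene of the 55 is not reported here), the 5 largest differences in each injured cluster, the 3 largest in each contrast in normal PT clusters, and genes past 0.5 outside the PT. Any other example was picked after its value was seen. Simulated data were used to check that the calling step runs as written. The seeded changes were far past the threshold and the noise was small, so the check does not bear on calls near the threshold. Spans are from GENCODE (GRCm38) and promoter windows from RefSeq (GRCm38.p6). Alternatives were another pseudocount, filter, threshold, reference cluster, centring and each mouse alone. Tools were matplotlib 3.10.9, scipy 1.17.1, pandas 2.3.3, numpy 2.4.6 and Python 3.11.15.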

Additional observations from a re-analysis of the deposited data

Results flagged for a closer look

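In 7 cases the difference with AAI was past 0.2 in the normal PT clusters, or past 0.5 in a cluster outside the PT with under 50% of genes at 0, with opposite signs in the 2 genotypes. Those in clusters with more genes at 0 are named in the results. The difference between genotypes was not tested in any of them, since each genotype and AAI state is 1 mouse. In the normal PT clusters the AAI difference of Itgb6 was 1.73 larger in the hKLF6 OE than in the control genotype (1.19 and −0.54), and that of Col27a1 0.92 larger (0.41 and −0.52), on the log2(value + 1) scale. The same held for Itgb6 in EC-1, by 1.48 (0.92 and −0.57), and in DCT_CNT, by 1.40 (0.80 and −0.60), where 0.0475% and 0.0752% of all genes had opposite differences past 0.5. Col27a1 in DCT_CNT differed by 1.33 (0.75 and −0.57). In EC-1 and DCT_CNT the PT gene Slc34a1 was at means of 32.1 and 28.0, and its part in these values was not tested.

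Col18a1 differed by 1.22 in MC (values of 2.39, 1.40, 0.690 and 1.78), where 1.1% of all genes went in opposite directions, and by −1.44 in Podocytes (0.338, 1.23, 1.44 and 0.4997), where 0.644% did. The signs in the 2 clusters were opposite to each other.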

How the results depend on the processing

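No paired analysis was possible because each group is 1 mouse and no test was made. Of the counts of called genes under the alternatives, 86 stayed within 1.5 times the value reported and 20 did not, and of the differences of single genes 365 stayed on their side of the threshold, 43 no longer passed and 6 reversed. With a larger value of at least 2, InjuredPT-A had 5 genes lower, InjuredPT-B 1 higher, AAI in hKLF6 OE 2 lower, and hKLF6 OE had 0 higher without and 1 lower with AAI. With a threshold of 0.5, InjuredPT-A had 1 and InjuredPT-B 1 higher, AAI in control 1 higher and 3 lower, AAI in hKLF6 OE 2 higher, and hKLF6 OE 0 higher and 1 lower without and 1 lower with AAI. With a pseudocount of 0.1, AAI in control had 5 higher and hKLF6 OE without AAI 6 lower. InjuredPT-A had 4 higher in the hKLF6 OE AAI mouse alone, and 1, 4 and 4 higher against PT-S1-S2-2, PT-S3-2 and PT-S3-3 alone. InjuredPT-B had 8 higher against the mouse without AAI. The 6 reversals were smaller differences against PT-S3-2 and PT-S3-3 alone: 0.59 and 0.41 for Col27a1 in InjuredPT-A, 0.33 and 0.48 for Col27a1 and 0.090 and 0.31 for Col4a5 in InjuredPT-B. The cause was not tested. Leaving out the control, control AAI, hKLF6 OE or hKLF6 OE AAI mouse, 53, 46, 51 and 50 of 55 genes had the same highest cluster. The 5 normal clusters taken singly as the reference were chosen after seeing the data. Unknown depth limits every low value.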
